A study of Mus musculus with 4 samples.

Results

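Polyamines are small, positively charged molecules that bind nucleic acids and that growing cells make in large amounts. The 10 genes described here were taken by name as the mouse genes for polyamine synthesis (Odc1, Amd1, Srm and Sms), for its control by antizymes (Oaz1, Oaz2 and the antizyme inhibitor Azin1) and for breakdown (Sat1, Smox and Paox). Each of the 10 had 1 row among the 45232 gene rows of the count files, and all 10 passed the filter on low counts that left 15320 genes for testing.

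RNA came from GFP+ LSK cells, which lack lineage markers and carry Kit and Sca-1, a gate that holds the stem cells and earliest progenitors of mouse blood. The cells were sorted from transplanted mice 3 months after they had received long-term haematopoietic stem cells, so both groups had gone through transplantation and engraftment. In the miR-99 KD group (2 mice, 2 libraries) the GFP+ donor cells carried a knockdown of the microRNA miR-99, and in the Scr group (2 mice, 2 libraries) a scrambled control. The strain and age of donors and recipients and the vector are not stated in the labels. Each gene's RNA level in miR-99 KD was compared with that in Scr.

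Ornithine decarboxylase, encoded by Odc1, turns ornithine into putrescine. Amd1 encodes S-adenosylmethionine decarboxylase, which supplies the aminopropyl groups that spermidine synthase (Srm) and spermine synthase (Sms) add to make spermidine and spermine. When polyamines are plentiful, ribosomes shift frame on antizyme mRNA and complete the antizyme protein, which binds ornithine decarboxylase and sends it to the proteasome, while the antizyme inhibitor Azin1, an inactive relative of ornithine decarboxylase, takes antizyme away from it. Sat1 acetylates spermidine and spermine, Paox oxidises the acetylated products and Smox oxidises spermine directly. Odc1 and Srm are textbook targets of the transcription factor MYC, and hypusine, a residue made from spermidine, is built into the translation factor eIF5A.

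The sequences below show the miR-99 family and the shift site of the antizymes. The library titles give the knockdown as miR-99 and do not say which family member. The mature miR-99 family, from RefSeq on build GRCm38.p6, shares its seed (bases 2 to 8, in capitals), so the 3 have the same 7-base target match.

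mmu-miR-99a-5p: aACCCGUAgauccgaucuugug

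mmu-miR-99b-5p: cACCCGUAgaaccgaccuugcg

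mmu-miR-100-5p: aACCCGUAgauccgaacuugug

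The 7-base complement of this seed, TACGGGT, occurred in 0 of the 10 longest annotated 3′ untranslated regions of the members, and its last 6 bases, ACGGGT, also in 0 of 10. Among 20644 genes with a 3′ untranslated region of at least 50 bases, 1.12% held the 7-base match and 5.57% the 6-base match, so such matches are rare across all genes. The search covers these letters in these windows and nothing else.

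The stretch around the antizyme shift site is shown for Oaz1 and Oaz2 on the plus strand, with the stop codon TGA of the unshifted frame in capitals. GENCODE M21 writes the shift into its coding models by leaving out 1 base, at chr10:80828295 in Oaz1 and chr9:65686272 in Oaz2 (GRCm38), and the codon GAT that is then read is in capitals.

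Oaz1 with the stop codon: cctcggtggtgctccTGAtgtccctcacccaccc

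Oaz1 coding model: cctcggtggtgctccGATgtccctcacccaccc

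Oaz2 with the stop codon: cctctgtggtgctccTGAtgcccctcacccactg

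Oaz2 coding model: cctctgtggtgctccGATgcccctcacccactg

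Gene counts per library ran from 27295197 to 32350590, and the members' counts from 107 to 12567. Kit stood at 1149 and 1280 CPM in Scr and at 670 and 774 in miR-99 KD (CPM, counts per 1000000 gene counts after TMM scaling, which corrects for differences in RNA composition). Ly6a, the Sca-1 gene, had 46.5 and 22.8 CPM in Scr against 12.4 and 22.3 in miR-99 KD, so both gate markers were present in each library. A list of 7 LSK and stem cell genes summed to 3353 and 3492 CPM in Scr and to 1644 and 1853 in miR-99 KD, and for each of the 7 both miR-99 KD values were the lower ones. A list of 10 erythroid genes summed to 6584 and 5885 CPM in Scr and to 9129 and 9441 in miR-99 KD. Car2 made up most of that sum, and for 7 of the 10 both miR-99 KD values were the higher ones. Hba-a1, Hbb-bt and Alas2 overlapped, each higher in both libraries numbered 1 than in both numbered 2. A list of 10 neutrophil genes summed to 8119 and 6011 CPM in Scr and to 29034 and 5121 in miR-99 KD, with all 10 highest in miR-99 KD 1. A list of 8 B cell genes summed to 81.2 and 40.03 CPM in Scr and to 284 and 87.0 in miR-99 KD, again with all 8 highest in miR-99 KD 1. A list of 6 mast cell and basophil genes summed to 58.2 and 40.3 CPM in Scr and to 117 and 95.9 in miR-99 KD. A list of 6 T and NK cell genes summed to 209 and 196 CPM in Scr and to 153 and 115 in miR-99 KD, although 5 of its genes had their highest value in miR-99 KD 1. Nkg7 made up most of that sum, and Cd3e, Cd3g and Cd8a, which define T cells, were at 0 in Scr 2 and miR-99 KD 2. Of the mast cell and basophil list, Prss34 was at 0 in those same libraries. The sums of 7 macrophage genes and of 5 megakaryocyte genes overlapped between the groups. In such bulk RNA, more or fewer cells of a type and more or less RNA per cell cannot be told apart, and the part of these cell type genes in the results below was not tested.

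Of the 4 synthesis genes, Odc1, Amd1 and Srm had their 2 highest values in the miR-99 KD libraries, by 1.38-fold, 1.83-fold and 1.49-fold, while Sms, the last step, was not. Oaz2 was lower in both miR-99 KD libraries, and the other antizyme, the antizyme inhibitor and the 3 breakdown genes overlapped between the groups. With p-values adjusted by Benjamini-Hochberg over all 15320 genes, the quasi-likelihood test of edgeR at 0.05, the main test, called 0 of the 10, as it called 0% of all genes tested. At an unadjusted p under 0.05 edgeR counted 3 of the 10, all higher, where it counted 5.97% of all genes as higher and 9.63% as lower. DESeq2 at an adjusted p of 0.05 called the same 3, Odc1, Amd1 and Srm, against 6.85% of all genes with an adjusted p (1.96% higher and 4.89% lower). limma-voom called 0 of the 10 and 0% of all genes. Groups that do not overlap are common here: this held for 50.5% of all genes (24.5% with miR-99 KD higher and 26% lower) and for 4 of the 10 (3 and 1). Over the 10 genes the median log2 difference was 0.07, over the 4 synthesis genes 0.52, and over all genes tested 0.02.

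**Figure D1:**
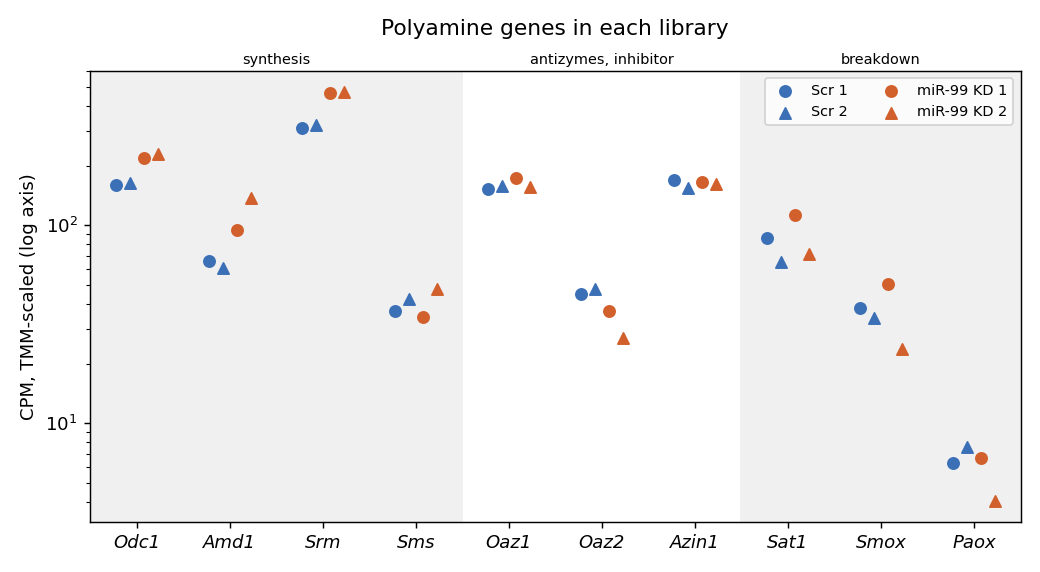
Normalised read count of each polyamine gene in each library, as CPM on a log axis, grouped by role, with circles for replicate 1 and triangles for replicate 2. Odc1, Amd1 and Srm have both miR-99 KD points above both Scr points, Oaz2 has both below, and the other 6 genes overlap.

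Odc1 (ENSMUSG00000011179) stood at 160.5 and 163.0 CPM in Scr and at 218 and 228 CPM in miR-99 KD. The Scr libraries were nearly equal and the gap to the miR-99 KD libraries was wider than the gap within either group. edgeR put the log2 difference at 0.47 ± 0.12 (SE; n = 2 and 2 libraries), with adjusted p-values of 0.232 by edgeR and 0.026 by DESeq2.

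Amd1 (ENSMUSG00000075232) showed the largest log2 difference of the 10 genes. It stood at 65.7 and 60.8 CPM in Scr and at 94.6 and 137 CPM in miR-99 KD, so the groups did not overlap but the miR-99 KD libraries lay further apart than the Scr libraries. On the log2 scale it differed by 0.87 ± 0.21 (SE; n = 2 and 2 libraries), with adjusted p-values of 0.227 by edgeR and 0.0096 by DESeq2. In absolute size this difference was larger than that of 84.0% of all genes tested. It was 0.58 without miR-99 KD 2, where DESeq2 no longer called the gene, and 1.12 without miR-99 KD 1.

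Amd1 has a near-identical copy, Amd2 (ENSMUSG00000063953), and 87.6% of the 50-base stretches of its longest coding transcript also occur in transcripts of other genes, mostly Amd2. Where reads with several alignments were set aside, both genes are undercounted, and reads may be split between them. Amd2 stood at 6.07 and 5.56 CPM in Scr and at 8.53 and 11.1 CPM in miR-99 KD in the same order of libraries as Amd1, and with so much shared sequence the 2 genes are not separate evidence. With the counts of both summed, edgeR gave 0.86 ± 0.21 on the log2 scale (SE; n = 2 and 2 libraries; adjusted p = 0.227).

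Srm (ENSMUSG00000006442) had the smallest p of the 10 genes, at rank 356 of 15320. It stood at 308 and 322 CPM in Scr and at 468 and 473 CPM in miR-99 KD, with each pair close together and a clear gap between the pairs. Its difference came to 0.58 ± 0.12 on the log2 scale (SE; n = 2 and 2 libraries), and the adjusted p was 0.219 by edgeR and 0.0015 by DESeq2. Only 2.4% of its 50-base stretches occur in transcripts of another gene.

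Sms (ENSMUSG00000071708), which acts after Srm, did not share this pattern. It stood at 36.8 and 42.4 CPM in Scr and at 34.3 and 47.8 CPM in miR-99 KD, so the miR-99 KD libraries held both the lowest and the highest value. The estimate was 0.05 ± 0.22 on the log2 scale (SE; n = 2 and 2 libraries; edgeR adjusted p = 0.931), with an error that leaves smaller differences in either direction unresolved. Its sign turned with the scaling and the library left out, at -0.03 with scaling by library totals alone and -0.20 without miR-99 KD 2.

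The 3 calls of DESeq2 were lost when either Scr library was left out, where it called fewer of all genes too. Its log2 differences without Scr 1 were 0.44 for Odc1, 0.91 for Amd1 and 0.53 for Srm. Without Scr 2 they were 0.48, 0.82 and 0.61. Such fits leave 1 library in a group, so the lost calls say little about these 3 genes alone. Odc1 was also not called when either miR-99 KD library was left out. With the replicate number as a block, DESeq2 called Amd1, where it called 390 of all genes. The size of the differences moved less: leaving out each library in turn, edgeR gave log2 differences of 0.43 to 0.50 for Odc1, 0.52 to 0.59 for Srm and 0.58 to 1.12 for Amd1. In the miR-99 KD libraries, where these 3 genes were higher, the erythroid, B cell and mast cell and basophil sums were also higher, and the stem cell and the T and NK cell sums lower. Among single genes both miR-99 KD values were higher for 7 of 10 erythroid, 4 of 8 B cell and 2 of 5 tested mast cell and basophil genes. Both were lower for 7 of 7 stem cell genes, 2 of 5 megakaryocyte genes and 1 of 3 tested T and NK cell genes. Over all genes tested, both miR-99 KD values were higher for 24.5% and lower for 26%.

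**Figure D2:**
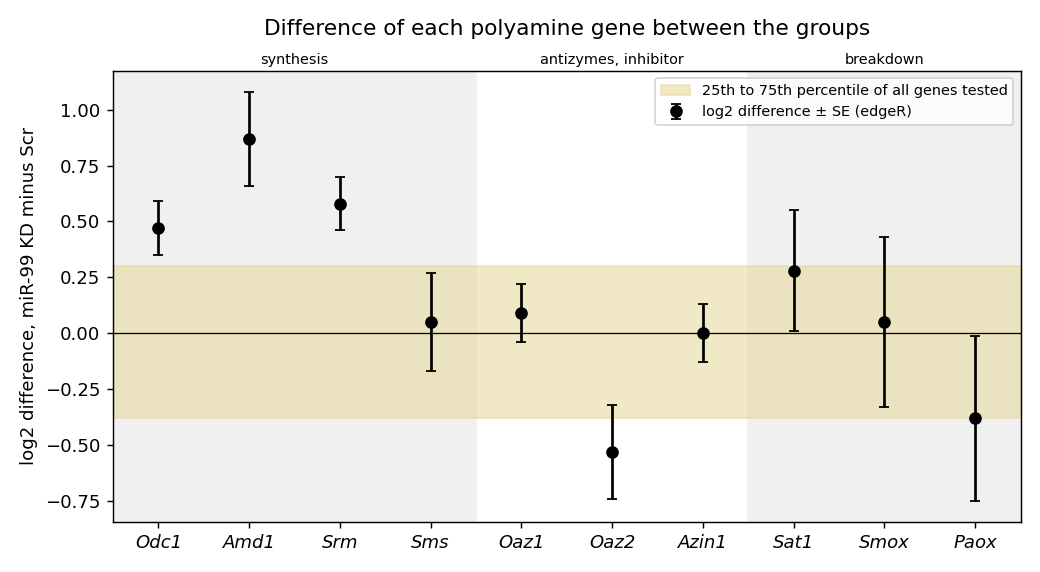
Log2 difference of each polyamine gene, miR-99 KD minus Scr, with the standard error from edgeR (n = 2 per group), over a band from the 25th to the 75th percentile of all genes tested (-0.38 to 0.30). Odc1, Amd1 and Srm lie above the band and Oaz2 below it, and Sms, Oaz1, Azin1, Sat1 and Smox lie inside it, with Paox at its lower edge.

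Of the antizymes, Oaz1 (ENSMUSG00000035242) was the more abundant and stood at 152.8 and 157 CPM in Scr and at 174 and 157 CPM in miR-99 KD. Scr 2 and miR-99 KD 2 were nearly equal, and the groups overlapped. By edgeR the log2 difference came to 0.09 ± 0.13 (SE; n = 2 and 2 libraries; adjusted p = 0.767).

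Oaz2 (ENSMUSG00000040652), the less abundant antizyme, stood at 44.8 and 47.8 CPM in Scr and at 37.1 and 27.0 CPM in miR-99 KD, with no overlap but with the miR-99 KD libraries further apart than the Scr libraries. edgeR put the log2 difference at -0.53 ± 0.21 (SE; n = 2 and 2 libraries), its p was 0.0533 before adjustment and 0.327 after it, and DESeq2 did not call it (adjusted p = 0.228). It was -0.78 without miR-99 KD 1, where DESeq2 called it (adjusted p = 0.0461), and -0.32 without miR-99 KD 2. Whether Oaz2 differed from Oaz1 in its response was not tested.

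Azin1 (ENSMUSG00000037458), the antizyme inhibitor, stood at 170.2 and 155 CPM in Scr and at 165 and 161 CPM in miR-99 KD. Both miR-99 KD values lay between the Scr values. The edgeR estimate was 0.00 ± 0.13 on the log2 scale (SE; n = 2 and 2 libraries; adjusted p = 0.993).

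The breakdown genes differed within the miR-99 KD group more than between the groups. Sat1 (ENSMUSG00000025283), the acetyltransferase, stood at 86.0 and 65.02 CPM in Scr and at 113 and 71.3 CPM in miR-99 KD. Smox (ENSMUSG00000027333), the spermine oxidase, stood at 38.1 and 33.95 CPM in Scr and at 50.8 and 23.6 CPM in miR-99 KD. Both genes were highest in miR-99 KD 1, the library in which the neutrophil list summed to 29034 CPM and in which all 8 B cell genes and 5 of the 6 T and NK cell genes were also highest. The 4 libraries had the same order for Smox as for the sum of that list, with miR-99 KD 2 lowest in both. Single neutrophil genes differed in this. Elane, Retnlg and Mmp8 had the order of Smox. Ngp, Ltf, Camp, Lcn2, S100a8 and S100a9 had the order of Sat1, with Scr 2 lowest, and Mpo had neither. The order of Sat1 was not particular to neutrophil genes. The macrophage sum had it too, at 412 and 166 CPM in Scr and at 435 and 296 in miR-99 KD. Of its 7 genes, 4 were highest in Scr 1. Hba-a1, Hbb-bt and Alas2 of the erythroid list also had the order of Sat1. The other 7 erythroid genes had both miR-99 KD values higher.

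On the log2 scale Sat1 differed by 0.28 ± 0.27 and Smox by 0.05 ± 0.38 (SE; n = 2 and 2 libraries; edgeR adjusted p = 0.640 and 0.963). Both turned in sign with the miR-99 KD library used. Without miR-99 KD 1 they were -0.09 for Sat1 and -0.61 for Smox, and without miR-99 KD 2 they were 0.58 and 0.50. The part of neutrophil, B cell, T and NK cell, macrophage and erythroid RNA in these values was not tested.

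Paox (ENSMUSG00000025464), the acetylpolyamine oxidase, was the least abundant of the 10, at 6.28 and 7.59 CPM in Scr and at 6.63 and 4.03 CPM in miR-99 KD. The groups overlapped, with miR-99 KD 1 between the Scr libraries. edgeR gave a log2 difference of -0.38 ± 0.37 (SE; n = 2 and 2 libraries; adjusted p = 0.645), and of -0.06 without miR-99 KD 2. Its exons share bases with Echs1 on the opposite strand, which had 2771 to 4103 counts per library, and without knowledge of the strand setting reads of the 2 genes cannot be told apart where they overlap.

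**Figure D3:**
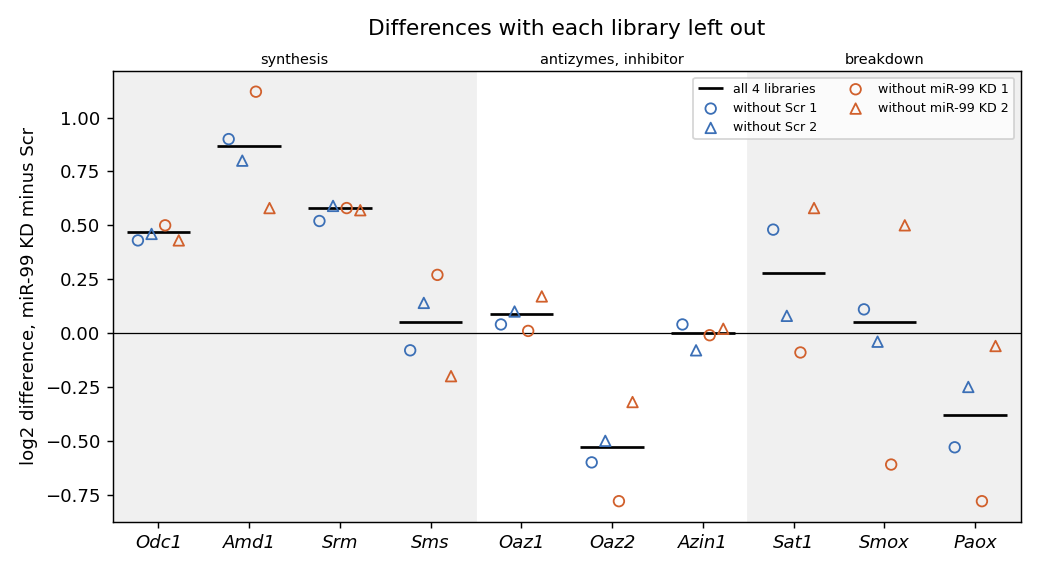
Log2 difference of each polyamine gene, miR-99 KD minus Scr, from all 4 libraries (bars) and with 1 library left out (open points). The points of Odc1 and Srm stay within 0.43 to 0.59, those of Amd1 spread from 0.58 to 1.12, and those of Sms, Azin1, Sat1 and Smox fall on both sides of 0.

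Levels of different genes were compared as TPM, counts per kilobase of exon scaled to the same sum in each library. Srm was the most abundant in both groups, at 688 ± 55 TPM in Scr against 908 ± 48 TPM in miR-99 KD (mean ± SD, n = 2), well above any other member. In Scr, Oaz1 followed at 211 ± 15 TPM, then Odc1 at 166 ± 9.8, Sat1 at 94.4 ± 14, Azin1 at 90.5 ± 1.6, Amd1 at 62.2 ± 0.46 and Oaz2 at 54.0 ± 5.0 TPM. The lowest levels in Scr were 32.2 ± 1.0 TPM for Smox, 23.0 ± 3.4 for Sms and 4.94 ± 0.90 for Paox. Of these neighbours, only Sat1 and Azin1 overlapped in their single libraries.

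In miR-99 KD, Odc1 at 203 ± 16 TPM and Oaz1 at 199 ± 5.6 TPM overlapped, as did Amd1 at 102 ± 31, Sat1 at 102 ± 28 and Azin1 at 80.4 ± 2.4 TPM. Oaz2 stood at 32.9 ± 5.9 TPM, Smox at 29.1 ± 14, Sms at 21.2 ± 5.8 and Paox at 3.33 ± 1.0 TPM, and of these Oaz2 overlapped with Smox and Smox with Sms. These levels, and so the order of the genes, depend on the exon length used, which joined all annotated exons of a gene. It was 2558 bases for Oaz1, 3405 for Odc1 and 2774 for Sat1. Their longest coding transcripts had 1071, 2208 and 1162 bases, and levels on those lengths were not computed. The levels also carry a limit from copies elsewhere in the genome. Of the 50-base stretches of the longest coding transcript, 52.2% also occur in another gene's transcript for Oaz1, 42.2% for Odc1, 28.9% for Paox and 28.7% for Sms, against 6.43% for Azin1, 7.28% for Sat1 and 0% for Smox.

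Ratios between members within a library do not depend on the scaling. Their size depends on the exon lengths used, but whether the groups overlap does not. The TPM ratio of Odc1 to its inhibitor Oaz1 was 0.789 and 0.778 in Scr against 0.943 and 1.10 in miR-99 KD, so the libraries of the groups did not overlap. The ratio of Odc1 to Azin1 was 1.73 and 1.93 in Scr against 2.43 and 2.60 in miR-99 KD. The ratio of Srm to Sms, the enzymes that make spermidine and spermine, was 31.5 and 28.6 in Scr against 51.3 and 37.2 in miR-99 KD. The ratio of Srm to Sat1 overlapped, at 6.22 and 8.60 in Scr against 7.21 and 11.5 in miR-99 KD. The ratio of Odc1 to Srm was lower in both miR-99 KD libraries, at 0.244 and 0.238 in Scr against 0.219 and 0.227 in miR-99 KD, a smaller gap than for the other ratios whose groups did not overlap. With 2 against 2 libraries a two-sided exact permutation test cannot go below p = 0.33, so none of these ratios can pass a test at 0.05, and antizyme activity is set by frameshifting, which RNA levels do not measure.

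**Figure D4:**
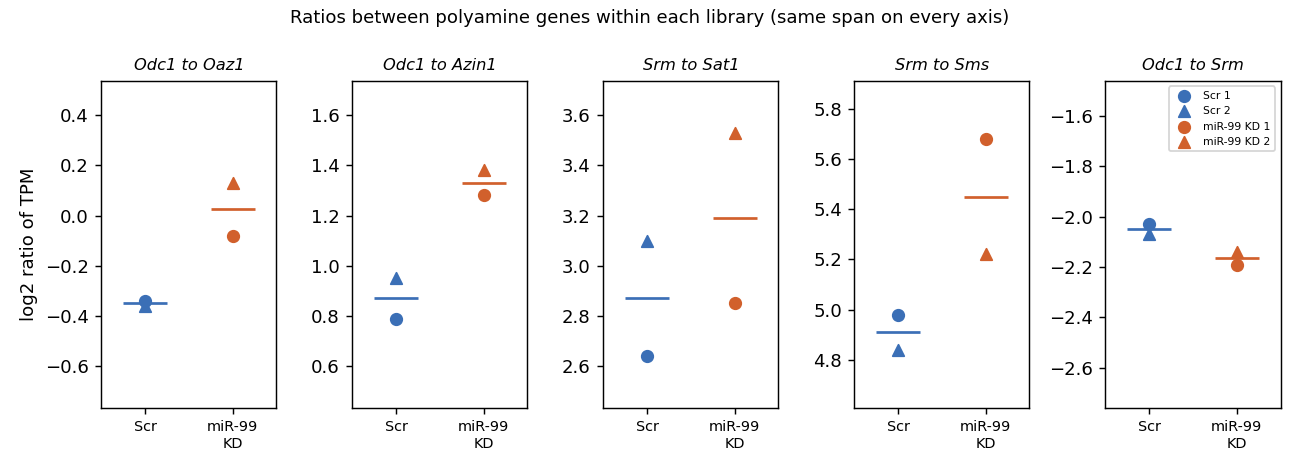
Log2 ratio of the TPM of named pairs of polyamine genes in each library, with a bar at each group's mean (n = 2) and the same span on each axis. Odc1 to Oaz1, Odc1 to Azin1 and Srm to Sms are higher in both miR-99 KD libraries, Odc1 to Srm is slightly lower, and Srm to Sat1 overlaps.

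Of 35 genes around the pathway in 6 lists, 30 passed the filter on low counts. edgeR called 0 of the 30 after adjustment. At an unadjusted p under 0.05 it counted 5 higher and 4 lower, where it counted 5.97% of all genes as higher and 9.63% as lower. DESeq2 called 1 higher, Oat, and 1 lower, Atp13a2, against 1.96% higher and 4.89% lower of all genes with an adjusted p. limma-voom called 0. The groups did not overlap in 11 of the 30 with miR-99 KD higher and in 8 with it lower, against 24.5% and 26% of all genes.

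Among genes that supply ornithine and S-adenosylmethionine, Oat, the mitochondrial enzyme that interconverts ornithine and glutamate semialdehyde, stood at 273 and 280 CPM in Scr and at 360 and 460 CPM in miR-99 KD. It differed by 0.57 ± 0.17 on the log2 scale (SE; n = 2 and 2 libraries), and the adjusted p was 0.2504 by edgeR and 0.0359 by DESeq2. Mat2a, which makes S-adenosylmethionine, stood at 598 and 667 CPM in Scr and at 587 and 542 CPM in miR-99 KD, with no call by either tool. Arg1, the ornithine-forming arginase of liver and macrophages, had 3 or 4 counts in each library and was not tested.

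In the salvage of methylthioadenosine, the by-product of spermidine and spermine synthesis, Enoph1 stood at 56.7 and 56.2 CPM in Scr and at 81.0 and 77.4 CPM in miR-99 KD, which gave 0.49 ± 0.14 on the log2 scale (SE; edgeR adjusted p = 0.242). Mtap, which starts this salvage, was lower by value, at 100.1 and 95.7 CPM in Scr against 82.1 and 85.9 in miR-99 KD, with an edgeR adjusted p of 0.451. Neither was called by DESeq2.

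Of the hypusine genes, Dhps, which starts hypusine formation, stood at 32.9 and 29.4 CPM in Scr and at 34.2 and 36.8 CPM in miR-99 KD, and Eif5a2, the minor eIF5A gene, at 19.4 and 12.6 CPM in Scr and at 12.4 and 9.98 in miR-99 KD. The edgeR adjusted p-values were 0.627 and 0.452. In this list 0 of 4 genes reached an unadjusted p under 0.05.

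The 2 polyamine transporters of the P5B ATPase family had differences of opposite sign. Atp13a2, which exports polyamines from lysosomes, stood at 198 and 234 CPM in Scr and at 138 and 137 CPM in miR-99 KD. On the log2 scale it differed by -0.65 ± 0.14 (SE; n = 2 and 2 libraries), with adjusted p-values of 0.220 by edgeR and 0.0061 by DESeq2. Atp13a3 stood at 248 and 255 CPM in Scr and at 284 and 481 CPM in miR-99 KD, or 0.60 ± 0.27 on the log2 scale (adjusted p = 0.352 by edgeR and 0.173 by DESeq2), and its miR-99 KD libraries lay far apart.

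Among paralogues of the members, Azin2, another antizyme inhibitor, stood at 3.14 and 4.12 CPM in Scr and at 1.25 and 1.47 CPM in miR-99 KD, or -1.41 ± 0.44 on the log2 scale (SE; adjusted p = 0.259 by edgeR and 0.175 by DESeq2). It was far below Azin1 in counts, with 33 to 120 per library against 4283 to 5695. Oaz3, the antizyme of the testis, had 0 to 5 counts per library and Sat2 2 to 10, so neither was tested.

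In the MYC network, Myc itself stood at 556 and 551 CPM in Scr and at 704 and 689 CPM in miR-99 KD, close within each group. Its difference was 0.33 ± 0.12 on the log2 scale (SE; n = 2 and 2 libraries; adjusted p = 0.308 by edgeR and 0.112 by DESeq2). Its relative Mycn went the other way, at 67.0 and 73.9 CPM in Scr against 40.1 and 53.1 in miR-99 KD, or -0.60 ± 0.19 on the log2 scale (SE; edgeR adjusted p = 0.275). Mnt, a repressor that competes with MYC for its partner Max, stood at 13.8 and 12.6 CPM in Scr and at 7.66 and 4.89 CPM in miR-99 KD, or -1.07 ± 0.32 on the log2 scale (SE; edgeR adjusted p = 0.251). DESeq2 called none of these 3.

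**Figure D5:**
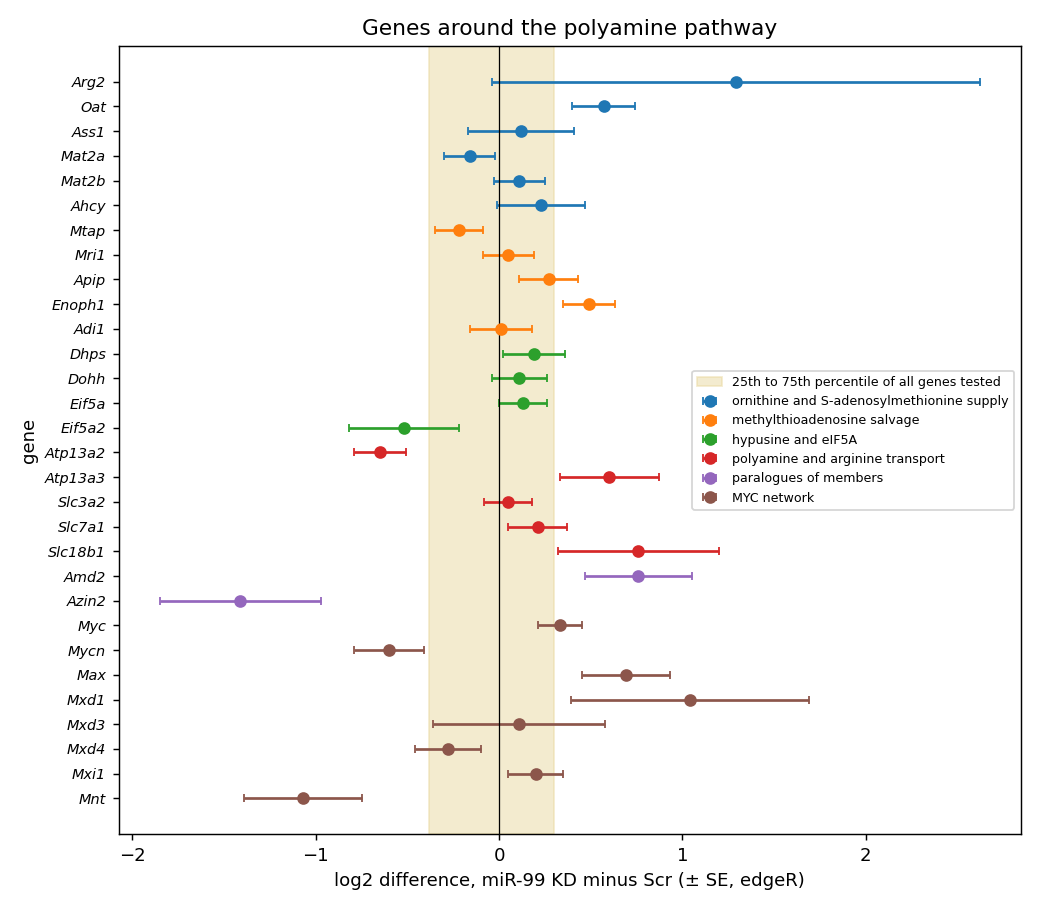
Log2 difference, miR-99 KD minus Scr, with the standard error from edgeR (n = 2 per group) for the 30 tested genes around the pathway, coloured by list, over a band from the 25th to the 75th percentile of all genes tested. Arg2, Oat, Enoph1, Atp13a3, Slc18b1, Amd2, Myc, Max and Mxd1 lie to the right of the band, and Eif5a2, Atp13a2, Azin2, Mycn and Mnt to its left.

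The MYC binding letters CACGTG, which read the same on both strands, were searched in RefSeq promoter windows (build GRCm38.p6) that run from 250 bases before to 50 bases after a gene's start. Of the 10 genes 8 had a window, and 1 of the 8, Sms, held the letters, where 8.09% of all 27025 genes with a window held them. The match began 196 bases before the gene start to which the first of the windows of Sms belongs. The stretch around it, on the minus strand at chrX:157492463-157492498, is shown as the only match found, with the letters in capitals.

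Sms promoter: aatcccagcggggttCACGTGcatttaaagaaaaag

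The windows of the other genes searched, Odc1 and Amd1 among them, held 0 matches. The part of MYC in the values of any of these genes was not tested. Srm and Azin1 had no window and were not searched. Sites outside these windows, such as introns, were not searched.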

How the data were processed

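RNA was measured in 4 libraries, 2 Scr and 2 miR-99 KD, grouped by their titles. The deposited files hold whole-number read counts for each Ensembl gene, with HTSeq's uncounted classes and pasted totals as last rows, which were kept out. Reads with no feature were 8.31% to 13.8% and reads with several alignments 18.0% to 21.9% of reads per library. The authors' tools were DESeq2, HTSeq, Picard and STAR on build mm9, per the submitters' processing notes; their versions and roles, the annotation and the strand setting are not stated there. Libraries were made by SMARTer amplification, per the labels' protocols, and without molecular identifiers any PCR copies not removed are counted. A note pasted into the files puts the total of the library titled Scr 1 under the name Scr-2, so the numbering within Scr is uncertain. A note in the file of miR-99 KD 2 gives Scr-1 a total of 29793890, which matches none of the 4 libraries; groups here rest on the titles alone.

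Counts were tested with edgeR 4.0.16 in R 4.3.3 (filterByExpr, TMM, quasi-likelihood, Benjamini-Hochberg over 15320 genes), with DESeq2 1.42.0 and limma-voom (limma 3.58.1) beside it; scripts were tested on simulated data. The SE is the log2 difference divided by the root of the F statistic. TPM used exon lengths of GENCODE M21, and 44585 rows matched a symbol. The members and lists were chosen with earlier results of these data known. All members were named, with the 2 genes of smallest p per surrounding list, those DESeq2 called, Myc, Mycn and the paralogues with a count; other genes named with a figure were chosen after their values were seen. Alternatives covered test, scaling, filter, block, threshold and left-out libraries. Protein sequences were not used here.

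Deviations from group means correlated at 0.057 between libraries of the same number, with 2 pairs, and the numbers were not taken as pairs. This value over all genes cannot show that the number is without effect on single genes. Hba-a1 stood at 796 and 877 CPM in the libraries titled 1 of Scr and miR-99 KD, and at 240 and 264 in those titled 2. Whether a batch goes with the number was not tested.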

Additional observations from a re-analysis of the deposited data

How the results depend on the processing

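Why these values moved (the cause) was not tested. Counts called over all genes, over the 10 polyamine genes and over the genes around them were 0, 0 and 0 by edgeR with all 4 libraries, 887, 3 and 2 by DESeq2, and 1064, 1 and 3 by edgeR with no filter, which adds low-count genes to the fit. Leaving out each library in turn, edgeR called 0 to 1013 genes, 0 to 1 of the 10 (Amd1, without miR-99 KD 1) and 0 to 4 of the surrounding genes, the 1013 without miR-99 KD 1, beside 437 when miR-99 KD 2 was left out. Such fits assume that the single library left in a group varies as the other group does. Chosen after seeing the data were the alternative fits' counts at an unadjusted p and the DESeq2 fits with a block or without a library. Without Scr 1, Scr 2, miR-99 KD 1 or miR-99 KD 2 in turn, DESeq2 called 131, 27, 1506 and 840 genes, 0 to 3 of the 10 and 0 to 5 of the surrounding genes. The count was also 0 of the 10 with limma-voom, and by edgeR with the 3 other scalings, with a filter at 10 CPM in 2 libraries (where Paox was not kept), without mitochondrial, ribosomal protein and globin genes, and at an adjusted p of 0.10. Scaled by library totals alone, the genes at an unadjusted p under 0.05 were 503 higher and 1898 lower in place of 915 and 1475, and those around the pathway 2 and 4 in place of 5 and 4.

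With the replicate block edgeR called 0 genes and DESeq2 390, of which 1 of the 10, Amd1, and 0 of the surrounding genes. Since the numbers are not known to pair the mice and there are 2 pairs, this is no measure of a weaker effect.

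The median log2 difference of the 10 genes, 0.07, was 0.00 to 0.30 without each library by edgeR and DESeq2, the 0.30 without miR-99 KD 2. Odc1, Amd1, Srm, Oaz1, Oaz2 and Paox kept their sign in each fit. Of the rest, the highest values without a library were 0.27 for Sms, 0.04 for Azin1, 0.58 for Sat1 and 0.50 for Smox. Sms was -0.03 with library totals alone, -0.08 without Scr 1 (-0.06 by DESeq2) and -0.20 without miR-99 KD 2 by both tools. Azin1 was -0.03 with upper-quartile factors and with the filter at 10 CPM, -0.08 with library totals alone, -0.02 with no filter, -0.08 without Scr 2 (-0.06 by DESeq2) and -0.01 without miR-99 KD 1 by both tools. Sat1 was -0.09 without miR-99 KD 1 (-0.08 by DESeq2). Smox was -0.06 with limma-voom, -0.04 with library totals alone, -0.05 with the replicate block by both tools, -0.04 without Scr 2 (-0.03 by DESeq2) and -0.61 without miR-99 KD 1 by both tools. Counts per member and library ran from 107 (Paox) to 12567 (Srm), and the share of counting error in each SE was not separated from the spread between libraries.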
